A study of Homo sapiens with 8 samples.

Results

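Chemokines and their receptors were measured in MDA-MB-231 breast cancer cells that express estrogen receptor beta (ER-beta), with and without its ligand estradiol. A row of the array table was taken as a member when its gene symbol was that of a CXC, CC, XC or CX3C chemokine or receptor, or one of the older or irregular names IL8, IL8RB, PF4, PPBP, DARC and CCBP2. This rule took 68 of the 31412 gene rows, 47 of them ligands and 21 receptors. MDA-MB-231 is an established line of triple-negative breast cancer, here engineered so that doxycycline switches on ER-beta, and every culture received 100 ng/ml doxycycline in medium with charcoal-stripped serum. The vehicle group was 3 cultures given ethanol, and the estradiol group was 3 cultures given 1 nM estradiol, both for 5 days. RNA was read on 8 Illumina bead arrays, of which 2 were repeat arrays averaged with their culture. All cultures carried the receptor, so the comparison was of ligand against no added ligand, and cultures without doxycycline were not analysed here. The data are of 1 engineered line, and nothing in the labels says how far apart the 3 cultures of a treatment were grown. The p-values set each difference against the variation among these cultures, estimated with help from the other rows, and speak only for these cultures.

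Chemokines are small secreted proteins that guide cells, above all leukocytes, along a concentration gradient. They are named for the spacing of their first cysteines (CC, CXC, CX3C, XC), and CXC ligands with a glutamate-leucine-arginine (ELR) motif before those cysteines draw neutrophils through CXCR1 and CXCR2. Most receptors couple to inhibitory G proteins, whereas the atypical ones do not signal that way and mainly take up and remove their ligands. In breast cancer cells, ELR ligands such as CXCL8 are known as products of inflammatory signalling through NF-kappaB and AP-1.

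A row counted as detected on an array when its detection p-value, as the file gives it, was below 0.01. Each array detected between 10172 and 11123 rows. Rows detected on at least 3 of the 8 arrays were tested, which was 11191 rows. Levels are log2 normalized signals, and the lowest signal of a detected row measured by a single probe was between 5.14 and 5.39 on the 8 arrays. The repeat array of vehicle culture 3 correlated at 0.989 over all rows with the first array of its own culture. Arrays of different vehicle cultures, this repeat included, correlated at 0.991 to 0.994. The low value does not show which array of culture 3 differs. The estradiol repeat array is titled as culture 1, whereas the series text speaks of replicate 3, and it was averaged with culture 1. Leaving out the vehicle repeat array, leaving out both, or moving the estradiol one to culture 3 kept all 10 calls among the members described below. ESR2, the gene of ER-beta, was detected on all 8 arrays, with culture levels of 11.14 to 11.46 in vehicle and 10.11 to 10.23 in estradiol, a difference of -1.17 (SE 0.118, limma adjusted p = 4.97e-05).

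Of the 68 members, 14 were tested, and the other 54 were set aside. With estradiol 4 tested members were higher and 6 were lower at an adjusted p below 0.05 (limma, Benjamini-Hochberg over all 11191 rows), and 4 did not pass. Over all tested rows 13.6% were higher and 14.2% were lower, 27.7% in either direction. The cultures of the groups did not overlap in 11 of the 14 members, against 42.8% of all tested rows. The median change of the tested members was -0.20, against -0.0232 for all tested rows. Placing ACKR3 and CXCL14, which no vehicle array detected, at the lower bounds of their changes left that median at -0.20. Both stay the highest of the tested members there, so the median could not move. These 2 members passed the detection filter through the estradiol arrays only, so a large difference was built into their passing. By kind, 3 ligands were higher and 6 were lower of 13 tested, and the single tested receptor was higher. Because the arrays read RNA pooled from each culture, fewer cells making a transcript and less transcript per cell cannot be told apart.

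**Figure D1:**
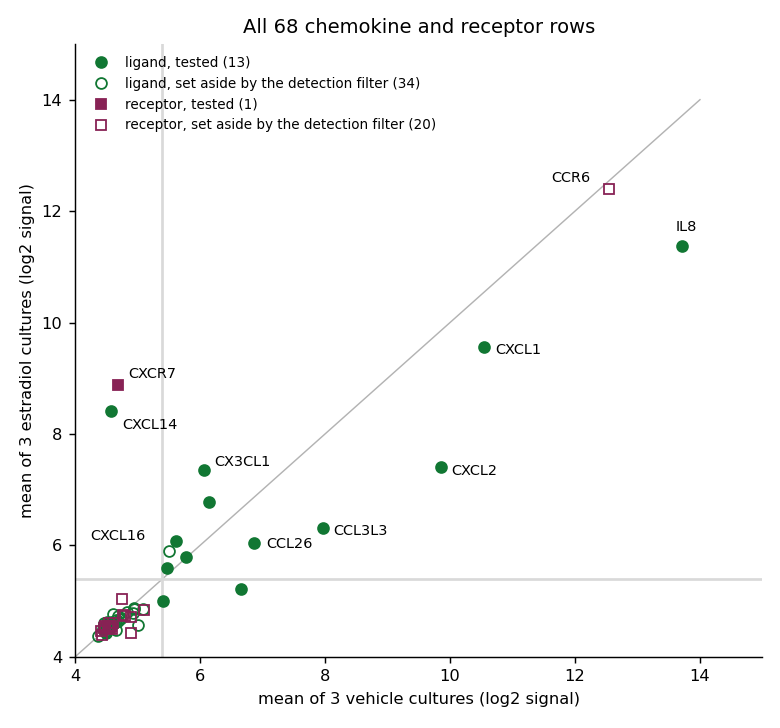
Mean level of each of the 68 members in the 3 vehicle cultures (horizontal axis, log2 signal) against the 3 estradiol cultures (vertical axis, log2 signal), with filled symbols for tested rows, open symbols for rows set aside, a diagonal of equal levels and grey lines at 5.39, the highest of the arrays' lowest detected signals. Most members sit in the lower left corner, ACKR3 (labelled with its row name CXCR7) and CXCL14 stand above the diagonal, and IL8, CXCL2, CXCL1 and CCL3L3 stand below it.

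The ELR ligands that passed the test all fell. CXCL8, listed as IL8 and known as the main human neutrophil attractant, had levels of 13.75, 13.70 and 13.70 in the vehicle cultures and of 10.87, 11.73 and 11.55 in the estradiol cultures. After averaging, the vehicle cultures lay within 0.05 of each other, though the arrays of vehicle culture 3 read 13.63 and 13.78. All estradiol cultures lay below the vehicle cultures, and estradiol culture 1 was the lowest on both of its arrays (10.86 and 10.87). The change was -2.34 (SE 0.19, adjusted p = 1.02e-05 by limma), which put vehicle 5.05-fold above estradiol. On the raw scale the signal was 11951 to 15196 on the vehicle arrays and 1898 to 3648 on the estradiol arrays.

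CXCL2, another neutrophil attractant that binds CXCR2, had levels of 9.66, 10.10 and 9.79 in vehicle and of 7.29, 7.54 and 7.38 in estradiol. It changed by -2.45 (SE 0.135, limma adjusted p = 6.02e-07), 5.45-fold higher in vehicle. The CXCL2 value of vehicle culture 3 averages arrays that read 10.07 and 9.51. CXCL1, its close paralog, had levels of 10.21, 11 and 10.45 in vehicle and of 9.54, 9.50 and 9.65 in estradiol. The CXCL1 groups did not overlap either, and the change was -0.99 (SE 0.177, limma adjusted p = 0.0022), 1.99-fold higher in vehicle. The CXCL1 value of estradiol culture 1 averages arrays that read 9.20 and 9.88, so the estradiol cultures look closer than single arrays were. The ratio of CXCL2 to CXCL1 was lower in each estradiol culture than in any vehicle culture: its log2 value averaged -0.70 ± 0.18 (SD, n = 3) in vehicle and -2.16 ± 0.17 (SD, n = 3) in estradiol, a shift of -1.46. When the array background was instead estimated on every row, CXCL2 changed by -1.39 and CXCL1 by -1.26, a shift of -0.13, while the other alternatives gave shifts between -1.64 and -1.14, with -1.16 when no background was taken off. For the shift of -1.46 an exact two-sided permutation test gave p = 0.1, the smallest p that 3 against 3 cultures allow. The ratio was not among the planned results. Groups that do not overlap always give this p, so the test adds nothing to the values. The sequences of the array probes were not used here, so the extent to which probes for these similar transcripts also read one another was not tested.

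PPBP, a precursor of platelet chemokines, had levels of 6.08, 5.70 and 5.53 in vehicle and of 5.99, 5.79 and 5.62 in estradiol. These cultures interleaved, and the change of 0.03 had a 95% interval of -0.32 to 0.38 (adjusted p = 0.909, limma). CXCL3, CXCL5 and CXCL6 were detected on no array. CXCL3 had levels of 5.34, 4.62 and 4.84 in vehicle and of 4.84, 4.89 and 4.84 in estradiol, around or below the lowest detected signal. Of the 7 ELR rows, 4 were thus tested, 3 were lower and none was higher, with a median change of -1.67 over the tested rows, where 14.2% of all tested rows were lower.

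Promoter sequence is shown for the ELR genes that fell, for CXCL3 as their undetected paralog and for CXCL14 as the ligand with the largest rise. CXCL1, CXCL2 and CXCL3 share nearly the same promoter, but CXCL3, below detection, has no measured response. The stretches run 5′ to 3′ on the strand of the gene from -140 to -21 relative to the annotated start (negative positions lie before it), from RefSeq on GRCh38.p14. Capitals mark 3 motifs searched on both strands: GGAATTTCC, a core of the NF-kappaB site, TGANTCA, the AP-1 site, and TATAAA, the TATA box. They lie at chr4:73740429-73740548 (plus strand) for CXCL8, chr4:73869253-73869372 (plus) for CXCL1, chr4:74099216-74099335 (minus) for CXCL2, chr4:74038710-74038829 (minus) for CXCL3 and chr5:135579012-135579131 (minus) for CXCL14.
CXCL8: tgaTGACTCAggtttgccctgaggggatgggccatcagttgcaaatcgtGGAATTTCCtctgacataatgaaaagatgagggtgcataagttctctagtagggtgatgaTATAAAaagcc
CXCL1: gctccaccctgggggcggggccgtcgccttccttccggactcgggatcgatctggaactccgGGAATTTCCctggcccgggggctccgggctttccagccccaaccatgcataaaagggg
CXCL2: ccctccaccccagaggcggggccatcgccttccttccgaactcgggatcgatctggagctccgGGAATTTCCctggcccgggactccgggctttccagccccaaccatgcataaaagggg
CXCL3: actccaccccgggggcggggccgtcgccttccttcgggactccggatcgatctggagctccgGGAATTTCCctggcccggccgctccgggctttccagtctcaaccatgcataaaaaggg
CXCL14: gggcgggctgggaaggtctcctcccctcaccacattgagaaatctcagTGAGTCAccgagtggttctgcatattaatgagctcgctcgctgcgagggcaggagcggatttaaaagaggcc

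Within these stretches the CXCL1 promoter was 91.7% identical to that of CXCL2 and 91.7% to that of CXCL3 in a global alignment, and CXCL2 and CXCL3 were 88.4% identical. CXCL8 was 45.9% to 47.8% identical to the other ELR promoters shown, and 52.3% to that of CXCL14. The CXCL14 promoter was 46.9% to 48.5% identical to those of CXCL1, CXCL2 and CXCL3. The NF-kappaB core stood at -78 to -70 in CXCL1 and CXCL3, at -77 to -69 in CXCL2 and at -91 to -83 in CXCL8. CXCL8 also held an AP-1 match at -137 to -131 and a TATA box at -31 to -26, and CXCL14 held an AP-1 match at -92 to -86 and no NF-kappaB core.

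In the table of 35116 promoter windows, each running from 250 bases before to 50 after the start, 0.461% held the core. It was chosen for display after the sequences had been seen. Of the 68 members, 46 were matched to 60 windows in that table, and 8 of these windows held it, those of CXCL1, CXCL2, CXCL3, CXCL5, CXCL6, CXCL8, CXCL10 and CXCL11. The broader NF-kappaB consensus, which overlaps the core in CXCL1, CXCL2 and CXCL3 but is absent from CXCL8, was present in 10 of the 60 windows and in 5.91% of all windows. AP-1 matches were in 10 member windows and 7.71% of all, and TATA boxes in 18 member windows and 11.5% of all. The full estrogen response element, GGTCANNNTGACC, was in none of the 60 and in 0.057% of all windows, and its single arm GGTCA was in 24 of them and 37.4% of all. Genes with the core thus included 3 that fell, 1 that was tested without passing (CXCL10) and 4 that were set aside. A match of letters is a description of the window and not a measured site.

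**Figure D2:**
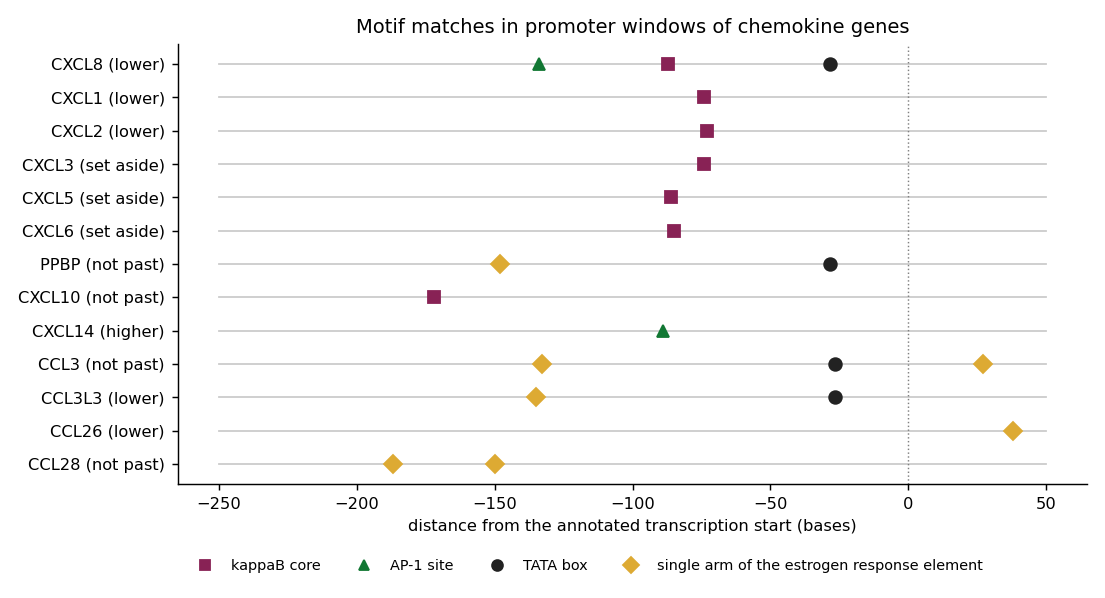
Motif matches along the promoter windows of 13 chemokine genes, by distance in bases from the annotated start (horizontal axis), with the outcome of each gene in brackets. Only the first window of each gene is drawn. CCL3 and CCL28 have further windows, which hold none of the motifs drawn. The NF-kappaB core lies between -91 and -69 in CXCL8, CXCL1, CXCL2, CXCL3, CXCL5 and CXCL6, whether the gene was lower or set aside, and is absent from the window of CXCL14.

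Along chromosome 4 these genes lie in the order CXCL8, CXCL6, PF4V1, CXCL1, PF4, PPBP, CXCL5, CXCL3 and CXCL2, by the RefSeq annotation. This run of 9 genes held 8 member rows, of which 4 were tested, 3 were lower and none was higher. The tested rows are the ELR rows already given, and 14.2% of all tested rows were lower. CXCL8 and CXCL2 lie at the ends of the run and CXCL1 within it, with PPBP and undetected genes between them.

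CXCL14, a CXC ligand without the ELR motif that many normal epithelia make, had levels of 4.56, 4.67 and 4.52 in vehicle and of 8.62, 8.23 and 8.38 in estradiol. It was detected on none of the 4 vehicle arrays and on all 4 estradiol arrays. The raw signal was 57.7 to 65.6 in vehicle, where undetected rows lie, and 390 to 445 in estradiol. Set against the lowest detected signal of the vehicle arrays, CXCL14 was at least 8.62-fold higher with estradiol (fitted change 3.83, SE 0.124, adjusted p = 1.11e-08 by limma). That bound holds for this background correction and offset only, since the fitted change was 2.69 with an offset of 50, 2.36 with no correction, 2.37 on the authors' values and 0.50 with the background estimated on every row, and passed in each.

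CXCL10, an interferon-inducible ligand of CXCR3 that attracts T cells, had levels of 5.93, 5.27 and 5.63 in vehicle and of 5.98, 6.04 and 6.18 in estradiol. The groups did not overlap, by a margin of 0.05. The change of 0.46 (SE 0.157, 95% interval 0.11 to 0.80) missed the threshold with a limma adjusted p of 0.0521. With the chip as a block the adjusted p was 0.0105, and without vehicle culture 1 the change was 0.62 with an adjusted p of 0.00849. Without vehicle culture 2, the lowest one, the change was 0.29 with an adjusted p of 0.144, and CXCL10 passed in 6 of 22 alternatives in all, by limma. The other interferon-inducible ligands, CXCL9 and CXCL11, were detected on no array.

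CXCL16, a membrane-bound ligand of CXCR6, was set aside because no array reported it as detected, but its row combines several probes and its detection p-value does not rank its signal. Its levels were 5.52, 5.53 and 5.48 in vehicle and 6.02, 5.80 and 5.87 in estradiol. In a fit without the detection filter CXCL16 rose by 0.39 (SE 0.0776, adjusted p = 0.0195, limma). That fit called 12 of the 68 members, 5 higher and 7 lower, where 9.81% of all 31412 rows were called. Of the 54 members set aside, CXCL16 and CXCR3 were the only ones it called.

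CC ligands held 28 rows, and 6 of them were tested. CCL3L3 and CCL3L1 are copies of the gene of CCL3, an attractant of monocytes and macrophages. CCL3L3 had levels of 8.03, 7.98 and 7.86 in vehicle and of 6.40, 6.23 and 6.32 in estradiol. The separation was wide against the spread of the culture means, at -1.64 (SE 0.107, adjusted p = 2.09e-06 by limma), 3.12-fold higher in vehicle. The arrays of vehicle culture 3 read CCL3L3 at 8.15 and 7.58, further apart than the culture means, with both above every estradiol array. CCL3L1 had levels of 6.44, 6.65 and 6.89 in vehicle and of 5.38, 5.13 and 5.15 in estradiol, a change of -1.44 (SE 0.137, limma adjusted p = 3.22e-05), 2.71-fold higher in vehicle. CCL3 itself lay close to the lowest detected signal, at 5.05, 5.34 and 5.85 in vehicle, detected on 3 of 4 arrays, and at 5.25, 4.81 and 4.94 in estradiol, detected on 1 of 4. Its change of -0.42 had a 95% interval of -0.84 to 0.01 (limma adjusted p = 0.134), and its groups overlapped. Because these genes are nearly identical copies, their rows may read one another's transcripts and are uncertain as separate measurements.

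CCL26, also called eotaxin-3, an attractant of eosinophils through CCR3, had levels of 6.96, 6.62 and 7.01 in vehicle and of 6.27, 5.96 and 5.93 in estradiol. All estradiol cultures were lower, by -0.81 on average (SE 0.141, adjusted p = 0.00193, limma), 1.75-fold higher in vehicle. CCL5, also called RANTES, an attractant of T cells and monocytes, went the other way, from 6.12, 6.22 and 6.08 in vehicle to 7.0, 6.60 and 6.72 in estradiol. CCL5 rose by 0.63 (SE 0.125, limma adjusted p = 0.00385), or 1.55-fold, and its row, which combines several probes, was detected on 2 of 4 vehicle arrays and 3 of 4 estradiol arrays. CCL28, an epithelial ligand of CCR10, had levels of 5.36, 5.45 and 5.61 in vehicle and of 5.67, 5.58 and 5.56 in estradiol. These overlapped, and the change was 0.13 (95% interval -0.11 to 0.38, limma adjusted p = 0.399).

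The tested CC ligands were thus 1 higher, 3 lower and 2 not past the threshold, where 27.7% of all tested rows were called in either direction, with a median change of -0.62. CCL14, CCL19, CCL20 and CCL4L1 were each detected on 1 vehicle array and no estradiol array, at levels that averaged 4.57 to 5.09. The other 18 CC ligand rows, among them CCL2, a monocyte attractant, were detected on no array. On chromosome 17 the run of 14 genes from CCL5 to CCL4L2 held 10 member rows and 3 tested ones, 1 higher and 1 lower. The run of 6 genes from CCL2 to CCL1 held none that was tested. CCL3L1, which was lower, and CCL4L1, which was set aside, are annotated to chromosome 17 but are in neither run.

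CX3CL1, or fractalkine, is made as a membrane-anchored protein whose chemokine domain can be shed. Its levels were 6.22, 6.33 and 5.63 in vehicle and 7.49, 7.32 and 7.28 in estradiol. Vehicle culture 3 was the lowest on both of its arrays (5.44 and 5.81), and all estradiol cultures were above all vehicle cultures. CX3CL1 rose by 1.30 (SE 0.172, adjusted p = 0.000308, limma), or 2.47-fold. XCL1 and XCL2 were detected on no array.

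**Figure D3:**
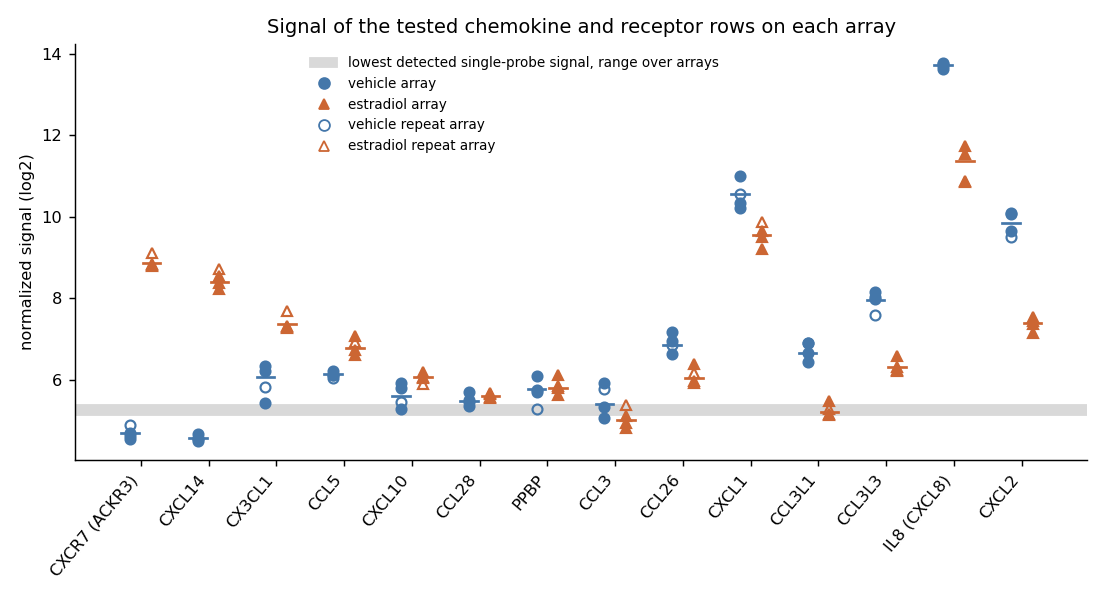
Level (log2 normalized signal) of the 14 tested members on each of the 8 arrays, circles for vehicle and triangles for estradiol, open symbols for the repeat arrays, horizontal bars for the mean of 3 cultures and a grey band for the range of the arrays' lowest detected single-probe signals. ACKR3 and CXCL14 lie below the band on every vehicle array and between 8.23 and 9.12 on every estradiol array, while CXCL8 (row IL8) lies far above the band in both groups.

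Among receptors, ACKR3 was the tested row. It is listed as CXCR7 and is an atypical receptor that takes up CXCL12 and CXCL11 and signals through arrestins. Its levels were 4.61, 4.70 and 4.72 in vehicle and 8.98, 8.80 and 8.82 in estradiol. No vehicle array and all 4 estradiol arrays detected it, and raw signals were 60 to 72.7 and 532 to 579. ACKR3 was at least 11.8-fold higher with estradiol (fitted change 4.19, SE 0.107, adjusted p = 2.16e-09 by limma). The row combines several probes, so that bound, which rests on single-probe rows, is nominal. It also holds for this correction and offset only: the fitted change was 3.07 with an offset of 50, 2.69 with no correction, 2.64 on the authors' values and 0.71 with the background estimated on every row, and passed in each. Both of its ligands were undetected: the CXCL12 and CXCL11 rows were detected on no array.

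The other 20 receptor rows were set aside, and 17 of them were detected on no array. Those 17 include CXCR1 and CXCR2 (listed as IL8RB), which bind the ELR ligands, CCR1, which binds CCL3 and CCL5, CCR3, which binds CCL26, CXCR3, which binds CXCL10, and CX3CR1, the receptor of CX3CL1. With CCR6 left out, the receptor rows set aside had mean levels between 4.40 and 5.11, in the range of undetected rows. CXCR4, a receptor of CXCL12, was detected on 1 estradiol array and had a change of -0.27 without the filter (adjusted p = 0.236, limma). CCR8, the receptor of CCL1 found on some T cells, was detected on 1 estradiol array, with a change of 0.29 (adjusted p = 0.0737 in that fit). CXCR3 changed by -0.47 (SE 0.107, adjusted p = 0.0314 in that fit), but its mean levels of 4.90 and 4.43 both lie below the lowest detected signal, and no array detected it.

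CCR6, the receptor of CCL20, was set aside with a bright signal. Its row had levels of 12.51, 12.53 and 12.58 in vehicle and of 12.42, 12.43 and 12.34 in estradiol, with raw signals of 4641 to 6518, yet it was reported as detected on 2 estradiol arrays only. The row combines several probes, and the file does not say which of them carries the signal. Its change of -0.14 did not pass (SE 0.0658, adjusted p = 0.293 without the filter, limma), so nothing is read from it here about CCR6 transcript.

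**Figure D4:**
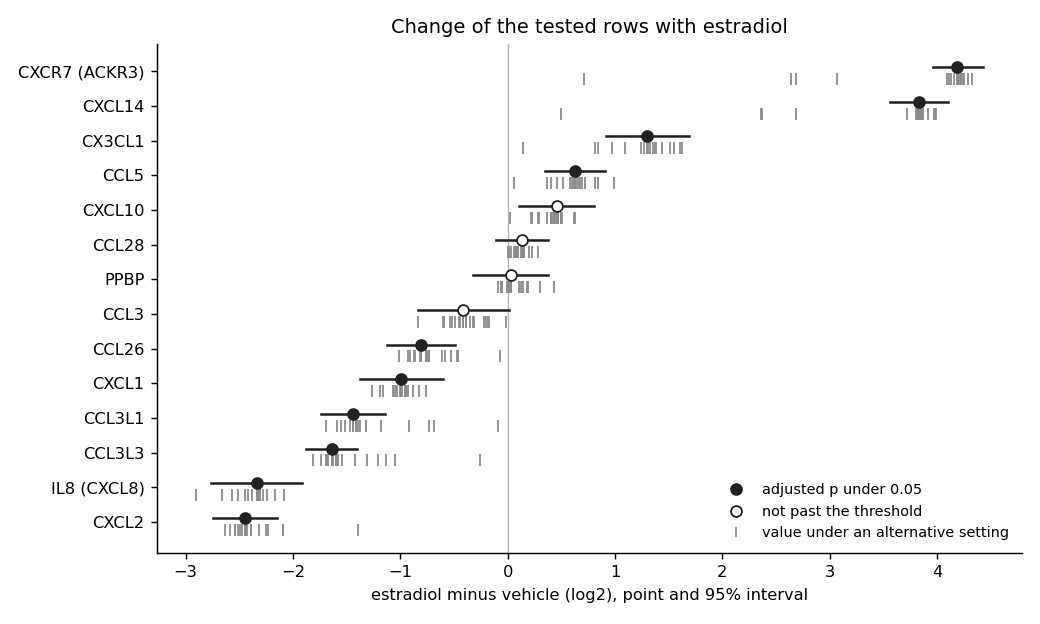
Change with estradiol (log2, estradiol minus vehicle) of the 14 tested members with its 95% interval, filled points for those past the threshold, and grey ticks for the value under each alternative setting. CXCL2 and CXCL8 (row IL8) lie lowest at -2.45 and -2.34, ACKR3 (row CXCR7) and CXCL14 highest at 4.19 and 3.83, and the tick nearest 0 of ACKR3, CXCL14 and CXCL2 is the value with the background estimated on every row.

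The arrays came from 2 chips that both held both groups. Chip A carried 2 vehicle arrays and 1 estradiol array, and chip B carried 2 and 3. Vehicle culture 3 and estradiol culture 1 were run on both, so the chips are not independent of each other. Every one of the 10 members past the threshold changed in the same direction on each chip alone. CXCL8 changed by -2.90 on chip A and -2.28 on chip B, and CXCL2 by -2.44 and -2.63. The values for CXCL1 were -1.19 and -0.99, for CCL3L3 -1.21 and -1.81, and for CCL3L1 -1.18 and -1.59. CCL26 changed by -0.53 on chip A and -0.87 on chip B. Among those that rose, ACKR3 changed by 4.09 and 4.29, CXCL14 by 3.98 and 3.86, CX3CL1 by 1.27 and 1.55, and CCL5 by 0.99 and 0.58. On chip B all 10 passed. Chip A holds a single estradiol array, which the fit assumes to vary like the vehicle arrays, so its tests say little about which calls hold, and CCL3L1, CCL26 and CCL5 did not pass there (adjusted p = 0.0523, 0.413 and 0.0799, limma).

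The sizes of several changes depended on how the background of the arrays was taken off. Estimating it on every row gave changes of -1.39 for CXCL2, -0.26 for CCL3L3, -0.09 for CCL3L1, 0.14 for CX3CL1, -0.07 for CCL26 and 0.06 for CCL5. Of these, CCL5 no longer passed (adjusted p = 0.0551, limma). CXCL8, whose signal lies far above background, changed by -2.57 under the same correction. On the authors' normalized values CCL3L3 changed by -1.05 and CCL3L1 by -0.69, and all 10 members passed.

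Genes of related pathways were counted against the rates over all tested rows, 13.6% higher, 14.2% lower and 27.7% either way. Called rows were close to that rate among the heparan sulfate and signalling lists, which are given as values only. The first list acts on chemokines outside the cell. Of 11 tested proteases that cut chemokines, 4 were higher, 4 were lower and 3 did not pass, with a median change of 0.21. The lysosomal protease CTSD rose by 2.68 (SE 0.142), whereas the matrix proteases MMP1 and MMP3, which can trim chemokines, changed by -2.95 (SE 0.214) and -1.96 (SE 0.105). MMP3 was detected on 1 of 4 estradiol arrays. Its mean level there, 5.18, lay in the range of the lowest detected signals, which limits the size of its change. The protease gene CTSS was lower, at least 1.45-fold, with levels of 5.75 and 4.88, and no estradiol array detected it. CTSS passed the detection filter through the vehicle arrays only, so a difference was built into its passing. Of 14 tested genes for heparan sulfate, the sugar chain that holds chemokines at cell surfaces, 4 were higher and none was lower, with a median of 0.16. The higher ones were the proteoglycan genes GPC1 (2.07, SE 0.126) and SDC2 (0.85, SE 0.13), the chain-modifying enzyme gene HS3ST1 (1.17, SE 0.124) and the heparanase gene HPSE (0.41, SE 0.119).

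Inside the cell, 24 genes of receptor signalling were tested, of which 3 were higher, 4 were lower and 17 did not pass (median 0.05). The smallest p-values belonged to the G protein gamma subunits GNG11 (-1.0, SE 0.117), GNG10 (-0.97, SE 0.153) and GNG12 (-0.57, SE 0.107) and to the GTPase RAC2 (0.56, SE 0.102). Of 9 tested genes that switch receptors off, 4 were higher, 1 was lower and 4 did not pass (median 0.15). The beta-arrestin gene ARRB1 rose by 0.98 (SE 0.101), and RGS19 and RGS4, which shorten G protein signals, by 0.97 (SE 0.119) and 0.67 (SE 0.103). The receptor kinase gene GRK6 changed by -0.54 (SE 0.12).

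Upstream of chemokine genes, 11 cytokine and cytokine receptor genes were tested, of which 2 were higher, 3 were lower and 6 did not pass (median 0.03). The 3 lower ones were the inflammatory cytokines IL1A (-3.29, SE 0.175), IL1B (-3.09, SE 0.128) and IL6 (-2.50, SE 0.101). IL1R1, the receptor of both IL-1 cytokines, was higher, at least 1.08-fold, with levels of 4.58, which no vehicle array detected, and 5.42. IL1R1 passed the detection filter through estradiol arrays only, so a difference was built into its passing. Of 22 tested transcription factor genes and regulators, 7 were higher, 5 were lower and 10 did not pass (median 0.16). NFKBIZ, a co-factor of NF-kappaB, changed by -1.38 (SE 0.131), and its relative BCL3 by 0.90 (SE 0.111). ZFP36, whose protein promotes decay of many cytokine and chemokine mRNAs, rose by 1.21 (SE 0.114), and IRF9, of the interferon response, by 1.06 (SE 0.102). These lists were drawn up with results of the same data known, and their part in the chemokine changes was not tested.

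**Figure D5:**
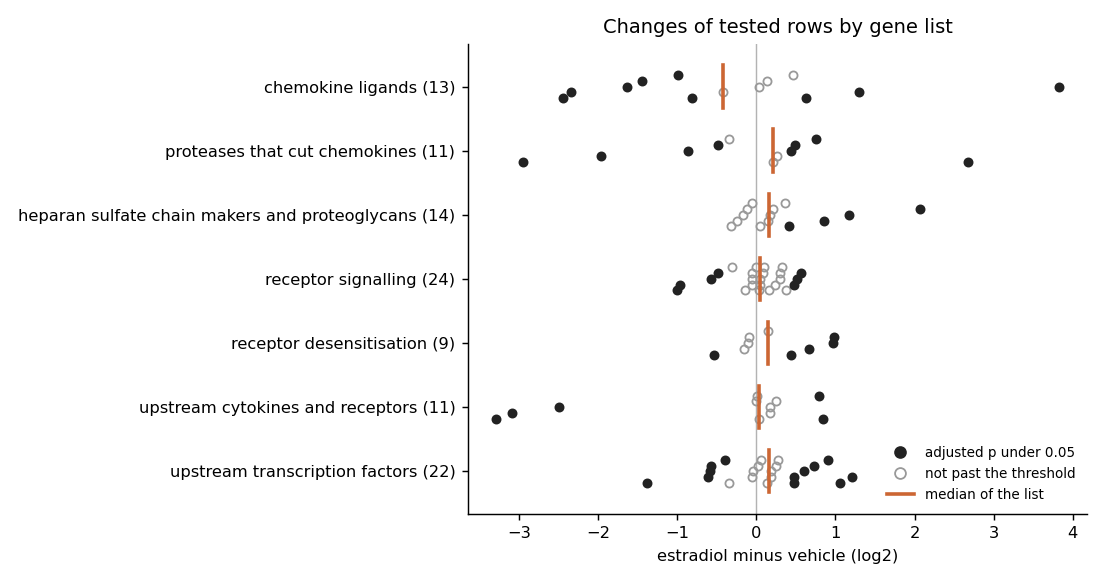
Change with estradiol (log2, estradiol minus vehicle) of each tested row in the chemokine ligand list and 6 lists of related genes, with the number of tested rows in brackets, filled points past the threshold and a vertical bar at each list's median. The chemokine ligands spread from -2.45 to 3.83 around a median of -0.42, and the medians of the other lists lie between 0.03 and 0.21.

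The cultures were checked for other cell types that make chemokines. Summed levels of a list were taken per array on the linear scale of the normalized signal, offset included, so undetected rows add background to them. All 6 markers of epithelial cells and of MDA-MB-231 were tested, and their summed level was 19904 to 23515 in vehicle and 40358 to 44930 in estradiol. The keratin genes KRT19 and KRT8 rose by 1.81 (SE 0.122) and 1.63 (SE 0.134), and the mesenchymal filament gene VIM by 0.68 (SE 0.118). EGFR, a growth factor receptor, was lower by limma at levels of 7.76 and 7.35, in a row of combined probes that no estradiol array detected, and KRT18 (0.43) and CD44 (0.13) did not pass. The part of these marker changes in the chemokine results was not tested. Of 13 leukocyte markers, 9, with the defining marker PTPRC among them, were detected on no array, and the summed level of the list was 924 to 1036 in vehicle and 1166 to 1207 in estradiol. LYZ was called higher, at least 1.17-fold, a nominal bound because its row combines probes and no vehicle array detected it (levels 4.66 and 5.53), and CD68 rose by 0.41 (SE 0.112). LYZ and EGFR passed the detection filter through the arrays of a single group, so a difference was built into their passing. CD14 (-0.32) and LAPTM5 (0.12) did not pass. None of 5 endothelial markers and 1 of 6 fibroblast markers, PDGFRB (-0.48, SE 0.134), was detected. Summed levels were 111 to 121 and 117 to 131 for the endothelial list, and 210 to 258 and 196 to 205 for the fibroblast list, in vehicle and estradiol. The endothelial sums are those of undetected rows alone.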

How the data were processed

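RNA of 6 cultures was read on 8 Illumina bead arrays. The deposited table, per the file headers, holds, per gene row and array, a raw intensity and the p-value of its detection, with several probes of a gene combined in 7282 of 31412 rows (3266 further rows name no gene and were left out). Software and normalization of the tables are not given in the sources used here. A second deposited table holds intensities normalized by the authors on a linear scale, and served as an alternative.

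Background was removed by normexp from the detection p-values of single-probe rows (offset 16). Values were taken to log2, quantile normalized and averaged per culture. Rows with detection p below 0.01 on at least 3 arrays were tested with limma 3.58.1 in R 4.3.3 (lmFit, eBayes, Benjamini-Hochberg, threshold 0.05, two-sided), a procedure tested on simulated data. The number of arrays limits precision. Intervals of changes are 95%. A bound (at least N-fold) sets the detected group against the lowest detected signal of the other. Same-numbered cultures deviated with correlations of 0.13, 0.13 and -0.03, so numbers were not taken as pairs. Promoters from the RefSeq table (GRCh38.p14) were searched with Python 3.11.15 and Biopython 1.88.

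Members and lists were chosen with earlier results of these data known. Every tested member is named, members set aside are named where an array detected them or where a tested ligand or receptor calls for it, and each pathway list gives its 4 rows of smallest p. Planned protein features were not computed.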

Additional observations from a re-analysis of the deposited data

How the results depend on the processing

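The 10 member calls held in every alternative but 2: chip A alone, with a lone estradiol array, kept 7, and a background inferred from all rows kept 9, losing CCL5. Requiring detection on all 8 arrays left 7 of the 10 in the fit, all called. Sizes depended on the background: over the alternatives ACKR3 ranged from 0.71 to 4.33, CXCL14 from 0.50 to 3.99, CXCL2 from -2.63 to -1.39, CCL3L3 from -1.81 to -0.26, CCL3L1 from -1.69 to -0.09, CX3CL1 from 0.14 to 1.62 and CCL26 from -1.01 to -0.07, with the value nearest 0 always from the background inferred from all rows. CXCL8 stayed between -2.90 and -2.08 and CXCL1 between -1.26 and -0.76. CXCL10 passed in 6 of 22 alternatives, with adjusted p from 0.000605 to 0.639 (with the replicate block, 0.047), and CCL3 in 3 of 21 (chip as a block -0.52, array weights -0.84, without vehicle culture 1 -0.60). The culture number as a replicate block changed no other member call and gave 1592 higher and 1676 lower rows of all genes. PPBP, near 0, turned sign without the repeat arrays (0.00), without the vehicle 3 repeat array, an alternative chosen after seeing the data (-0.05), and without vehicle culture 2 or 3 or estradiol culture 1, in a range of -0.09 to 0.19 over all single cultures left out. CCL28 was 0.00 with array weights.

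Over all rows, 1518 higher and 1586 lower became 2382 and 2690 with the chip as a block, 280 and 129 on chip A alone and 3080 and 3426 with array weights. Leaving out single cultures gave 921 to 1698 lower rows, with 921 when vehicle culture 3 was dropped, 950 for estradiol culture 3 and 1010 for estradiol culture 2. Centring each array on its median moved the median of all rows to 0.143, and gave 2052 higher and 540 lower rows, so that 79.2% of called rows were higher against 48.9%, with all 10 member calls kept. On chip A that share was 68.5%. The causes were not tested. Without the filter 1 receptor row, CXCR3, was lower, and with detection required on all 8 arrays, which removes ACKR3, 0 receptor rows were higher. Members below the lowest detected signal, and the vehicle level of ACKR3 and CXCL14, are limited by signal over background.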
